A study of Mus musculus with 6 samples.

Results

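The genes of the proteasome were examined for p53 summits in mouse epidermal basal progenitor cells. They were chosen by name: every protein-coding RefSeq gene whose symbol starts with Psma, Psmb, Psmc, Psmd, Psme, Psmf or Psmg and a digit. This gave 51 of 21887 protein-coding genes on assembled chromosomes. The names cover 48 subunits, activators, chaperones and inhibitors. The other 3 matched the rule but had no listed subunit role. Psmc3ip encodes a partner of meiotic recombinases and Psme3ip1 a protein that binds the activator PSME3. Psme2b is a second gene named after an activator subunit.

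DNA bound by p53 was sequenced (ChIP-seq) in 6 libraries, 3 with the genotype p53WT (WT) and 3 with p533KR (3KR). The labels only name the 3KR allele. As background knowledge, its p53 has arginine in place of 3 lysines of the DNA-binding domain. Both groups came from mice of 8 weeks, whose basal cells were sorted for high alpha-6 integrin and for EpCAM, and both had Nutlin-3a, which keeps MDM2 from degrading p53, at 25 µM during tissue digestion. The number of animals behind a library is not stated in the labels.

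The values analysed were the combined summits of each genotype, 1668 single-base entries for WT and 6753 for 3KR. No list gives values of single libraries, so there is no spread between replicates and no test between genotypes, and the sequencing depth is unknown. Of the WT summits 53.1% had a 3KR summit within 200 bp, against 13.05% of 3KR summits with a WT one. Each list names its summits after a single run label, one with the number 1 at its end (WT) and one with the word Doxo in it (3KR). Whether 3KR cells were treated differently, or the WT list rests on fewer libraries, cannot be told apart from genotype here. Summits do not measure expression, so the labelled cell type was not checked against its markers.

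The proteasome is the barrel-shaped protease that degrades proteins tagged with ubiquitin, p53 among them once MDM2 has tagged it. Alpha and beta subunits form its core particle, with the protease sites on beta subunits. A regulatory particle of ATPase and non-ATPase subunits recognises, unfolds and feeds in the substrate. Other activators can cap the core in its place, and dedicated chaperones assemble both particles. In mammals the transcription factor NFE2L1 raises proteasome genes together through antioxidant response elements when proteasome activity falls. Some beta subunits are replaced by inducible ones after interferon, which changes the peptides made for antigen presentation.

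Few of the 51 genes had a summit in WT and most had none in 3KR either, as was so over all protein-coding genes. A summit lay inside the gene or within 10 kb of an end at 3 genes in WT, Psma2, Psmd12 and Psmc3ip, or 5.88% (95% Wilson interval 2.02 to 15.9, counting error only). The same held for 5.04% of all protein-coding genes, so the share in WT was near the background. In 3KR 15 genes had one, or 29.4% (18.7 to 43.0), against 23.4% of all protein-coding genes. The intervals treat genes as independent, though a summit can count for several genes, so they are no test against the background. The 3 genes of the WT list were among these 15, where 3.92% of all genes had a summit in both lists. A summit only in WT was found at 0 of the 51, against 1.12% of all genes. The other 36 of the 51 had none in either list, where 23.4% of all genes had a 3KR summit and 1.12% only a WT one. Without the 3 genes that had no listed subunit role, 2 of 48 had a WT summit (4.17%) and 13 of 48 a 3KR summit (27.1%). With each summit given only to its nearest gene, the shares of the 51 inside or within 10 kb fell below those of all genes. They were 1.96% against 4.03% in WT and 13.7% against 17.3% in 3KR.

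The genes with a 3KR summit differed in how close the nearest one was. At 10 of the 15 genes a 3KR summit lay within 1 kb of a gene end, and all 10 were within 500 bp: Psma2, Psma5, Psmb2, Psmb9, Psmc4, Psmd5, Psmd12, Psme2, Psme3ip1 and Psmg2. They were 19.6% of the 51 (11.02 to 32.5), against 10.6% of all protein-coding genes. At the other 5, Psmb5, Psmc3ip, Psmc5, Psmd2 and Psme1, the nearest summit was 7.80 to 9.93 kb outside the gene and closer to an end of another gene. In WT Psma2 and Psmd12 had a summit within 1 kb of an end, 3.92% of the 51 (1.08 to 13.2), where all genes gave 1.05%. A summit between close genes counts for each of them, so these shares are descriptions. With only the nearest gene counted, 7 of the 51 had a 3KR summit within 1 kb of an end, 13.7% against 8.81% of all genes.

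**Figure D1:**
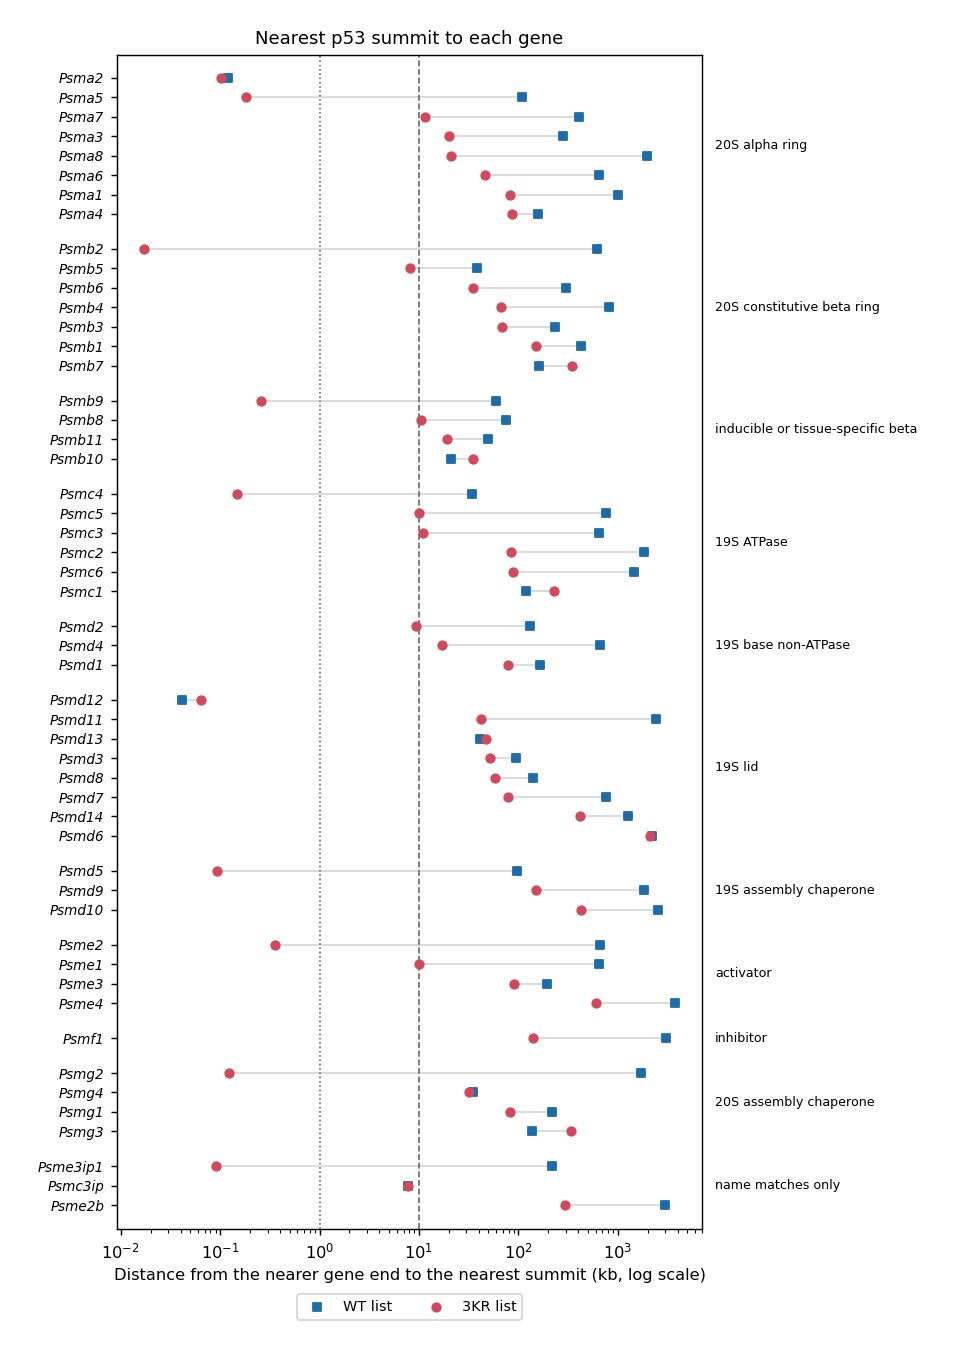
Distance in kb (log scale) from the nearer end of each of the 51 genes to the nearest summit of the WT list (squares) and the 3KR list (circles), grouped by role. The dotted line marks 1 kb and the dashed line 10 kb. Between 1 and 5 kb there is no point, and Psma2 and Psmd12 have both points left of 1 kb.

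Wherever a start site was annotated, the summits at gene ends lay at the start. RefSeq promoter entries, which give strand and start, matched 43 of the 51 genes. Of these, 8 had a 3KR summit within 1 kb of an annotated start, or 18.6% (9.74 to 32.6), against 11.3% of all protein-coding genes with an entry. Within 1 kb of the opposite end there was a 3KR summit at 0 of 43 (upper Wilson limit 8.20%), where all genes gave 0.875%. In WT it was 2 of 43 at the start (background 1.03%) and 0 of 43 at the opposite end (background 0.172%). Of the 8 starts, 7 had the 3KR summit upstream and 1, that of Psma5, had it downstream. The summit of Psme3ip1 was upstream of its nearest annotated start but inside the gene. Psmb2 and Psmg2 had no entry.

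**Figure D2:**
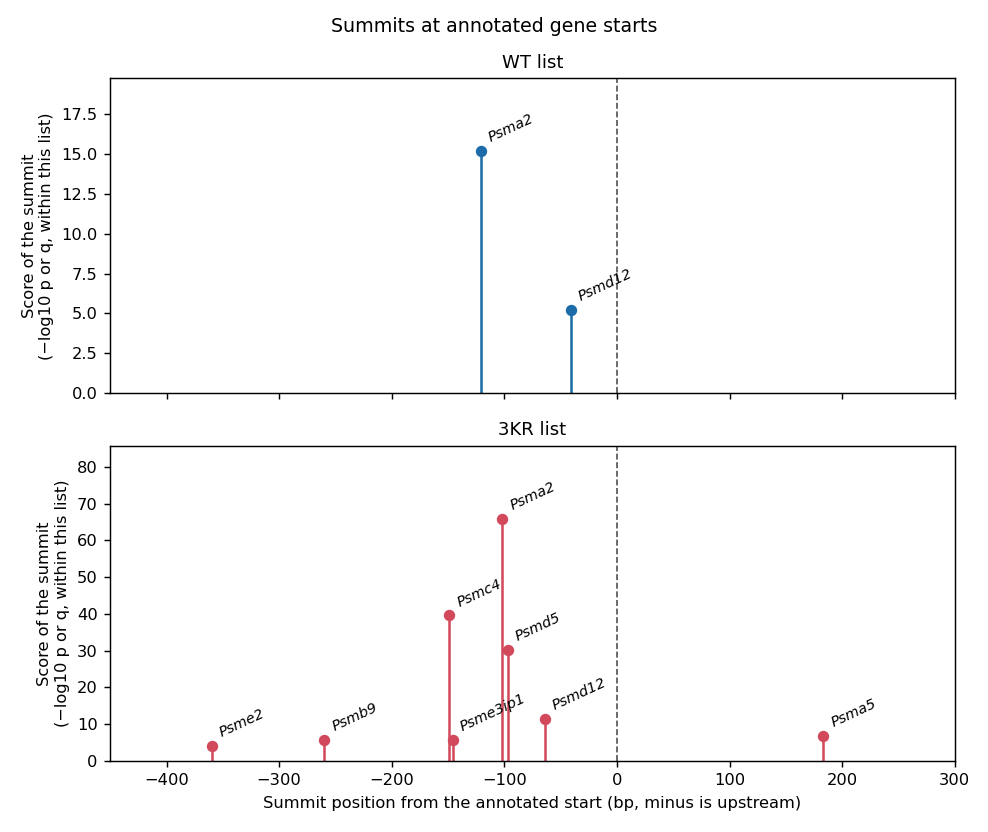
Position of each summit within 400 bp of an annotated start (x axis, bp, minus is upstream) and its score within its own list (y axis, -log10 of p or q), with WT above and 3KR below. The summits of Psma2 are the highest in both panels, at 15.2 in WT and 65.9 in 3KR, and Psma5 is the only gene with its summit downstream.

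Among the alpha subunits, which form the outer rings of the core and its gate, Psma2 had the highest scored summit of all 51 genes in each list. The score is the −log10 of a p or q value from the authors' peak caller and is read only within a list. In WT the summit of Psma2 (chromosome 13, 14613242 to 14625673, mm10) was at 14613121, 121 bp upstream of the start, with a score of 15.2 and rank 402 of 1668. In 3KR it was at 14613140, 102 bp upstream, with a score of 65.9 and rank 117 of 6753. The 2 summits lay 19 bp apart, in the stretch between Psma2 and Mrpl32, which encodes a protein of the mitochondrial ribosome. The nearer end of Mrpl32 was 84 bp from the WT summit and 103 bp from the 3KR summit, so neither can be given to Psma2 alone.

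The 250 bases upstream of the starts of Psma2 and Psmd12 are printed here because they are the proteasome promoters with a summit in both lists. Sequences are from RefSeq (GRCm38.p6, with the primary chromosomes of mm10), 5′ to 3′ on the strand of the gene, and capitals mark every match to the 10 motifs searched, named further on. Psma2 lies on the plus strand, and its stretch is chr13:14612992-14613241.
Psma2: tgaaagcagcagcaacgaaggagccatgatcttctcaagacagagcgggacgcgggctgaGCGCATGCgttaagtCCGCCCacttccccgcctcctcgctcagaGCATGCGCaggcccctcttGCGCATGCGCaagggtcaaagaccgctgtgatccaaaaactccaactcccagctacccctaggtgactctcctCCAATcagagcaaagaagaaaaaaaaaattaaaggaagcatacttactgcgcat
Psmd12 lies on the plus strand as well, with the stretch chr11:107479278-107479527.
Psmd12: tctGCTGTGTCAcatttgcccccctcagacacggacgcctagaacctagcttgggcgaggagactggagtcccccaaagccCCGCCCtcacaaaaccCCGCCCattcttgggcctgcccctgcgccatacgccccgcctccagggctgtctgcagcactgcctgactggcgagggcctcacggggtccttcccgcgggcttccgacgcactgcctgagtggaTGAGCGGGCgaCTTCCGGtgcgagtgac

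In the Psma2 stretch the WT summit is base 130 and falls inside 2 overlapping matches to GCATGCGC, at bases 124 to 131 and 126 to 133 on opposite strands. These letters are the core of the motif of nuclear respiratory factor 1 (NRF1, a factor of housekeeping promoters that is not the NFE2L1 protein). Further matches are at bases 61 to 68 and 105 to 112, and the 3KR summit is base 149. The core was found in 3.52% of the promoter windows of all protein-coding genes, and in 11.8% of those with a 3KR summit within 1 kb of a gene end. A summit is the single base that the caller gives for a peak, and no error of it is given.

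Psma5, another alpha subunit, had a summit only in 3KR, at 108257109 on chromosome 3. It lay 183 bp downstream of the start, inside the gene, with a score of 6.87 and rank 5006 of 6753. The other 6 alpha genes had no summit within 10 kb. Psma7 came closest, 11.5 kb from a 3KR summit.

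Among the beta subunits of the standard core, Psmb2 had 2 summits in 3KR and none in WT. One was 17 bp outside the gene at its lower coordinate, at 126677620 on chromosome 4, with a score of 36.7 and rank 365 of 6753. The second was inside the gene at 126693159, 15522 bp from the nearer end, with a score of 13.6 and rank 2159. The nearest WT summit was 620 kb away. Psmb5 encodes the subunit with the chymotrypsin-like protease site, the main target of proteasome inhibitor drugs. Its 3KR summit at 54605991 on chromosome 14 (score 9.63, rank 3622) was 8.13 kb outside the gene and 108 bp from an end of 4931414P19Rik. The genes of the other protease sites, Psmb6 and Psmb7, were 34.9 and 344 kb from the nearest 3KR summit.

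Of the 4 inducible or tissue-specific beta genes, Psmb9, an interferon-induced subunit, had a 3KR summit. It was at 34187590 on chromosome 17, 260 bp upstream of the start, with a score of 5.69 and rank 5705 of 6753. The summit lay inside Tap1, which encodes a chain of the transporter that carries peptides to MHC class I molecules, 34 bp from the end of that gene. Psmb8, the neighbouring inducible subunit gene, was 10.6 kb from the same summit, just outside the limit. Psmb10 had none within 10 kb, and its nearest summits were 21.2 kb away in WT and 34.6 kb in 3KR. For Psmb11, the thymus-specific subunit gene, these were 49.5 and 19.3 kb.

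Among the 6 ATPases, which form the motor of the regulatory particle, Psmc4 had a 3KR summit at 28050241 on chromosome 7, 149 bp upstream of its start. Its score was 39.6 and its rank 315 of 6753. A second 3KR summit stood 1929 bp upstream, with a score of 5.69 and rank 5705. The nearest WT summit was 34.3 kb away. Psmc5 was reached only by a summit 9.91 kb away (106273019 on chromosome 11, score 5.13, rank 6018), which lay 1 bp from an end of Tcam1. Psmc3 missed the limit at 11.1 kb.

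Of the 11 non-ATPase genes of the base and lid, 2 had a 3KR summit inside or within 10 kb, where 23.4% of all protein-coding genes did. In WT it was 1 of 11, where all protein-coding genes gave 5.04%. Psmd12, a structural subunit of the lid (chromosome 11, 107479528 to 107498036), had a summit in both lists. It stood 41 bp upstream of the start in WT, at 107479487, with a score of 5.22 and rank 1464 of 1668. In 3KR it stood 64 bp upstream, at 107479464, with a score of 11.4 and rank 2770 of 6753. The summits lay 23 bp apart, and the nearest end of another protein-coding gene, Pitpnc1, was 8767 bp from the WT summit. In the Psmd12 stretch above the WT summit is base 210 and the 3KR summit base 187. The capitals nearest to them are TGAGCGGGC at bases 223 to 231, a match to the antioxidant response element core TGANNNNGC. Next comes an ETS match on the opposite strand at bases 234 to 240.

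Psmd2 encodes the large scaffold of the base. Its 3KR summit at 20672658 on chromosome 16 (score 11.4, rank 2770) was 9.24 kb outside the gene and 62 bp from an end of Eif4g1, a translation initiation factor gene. The other 9 had no summit within 10 kb in either list, among them Psmd14, the gene of the deubiquitinase of the lid, at 416 kb from the nearest 3KR summit. Psmd6 was the farthest of all 51, at 2086 kb.

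Psmd5 encodes a chaperone of regulatory particle assembly. Its 3KR summit at 34871059 on chromosome 2 lay 97 bp upstream of the start, with a score of 30.1 and rank 543 of 6753, and the nearest WT summit was 97.5 kb away. The other chaperones of that particle, Psmd9 and Psmd10, were 152 and 428 kb from a 3KR summit.

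The upstream stretches of Psmc4 and Psmd5 are printed because they hold the highest scored 3KR summits that had no WT summit and fell within an annotated promoter window. Both genes are on the minus strand. The Psmc4 stretch is chr7:28050093-28050342, and its summit is base 102.
Psmc4: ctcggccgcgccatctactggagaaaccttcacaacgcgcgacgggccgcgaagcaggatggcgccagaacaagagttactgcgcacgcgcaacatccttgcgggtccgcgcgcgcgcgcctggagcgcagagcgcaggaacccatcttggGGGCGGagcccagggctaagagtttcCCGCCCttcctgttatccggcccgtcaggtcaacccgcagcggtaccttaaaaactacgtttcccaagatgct
The Psmd5 stretch is chr2:34870963-34871212, and its summit is base 154, the first base of a match to GGGCGG, the core of the SP and KLF factors.
Psmd5: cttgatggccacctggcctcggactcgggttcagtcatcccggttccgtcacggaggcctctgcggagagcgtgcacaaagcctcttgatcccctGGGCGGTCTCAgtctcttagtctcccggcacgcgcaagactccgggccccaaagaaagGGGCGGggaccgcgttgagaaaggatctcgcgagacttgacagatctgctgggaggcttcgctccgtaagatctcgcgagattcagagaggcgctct

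In the Psmc4 stretch the 2 matches in capitals, at bases 152 to 157 and 178 to 183, are to GGGCGG as well, on opposite strands and downstream of the summit. In the Psmd5 stretch the first run of capitals holds a GGGCGG match and an overlapping TGANNNNGC match on the opposite strand.

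Among the chaperones of core assembly, Psmg2 had a 3KR summit 124 bp outside the gene (chromosome 18, 67641463, score 8.74, rank 3966). It was also 108 bp from an end of Cep76, a centrosomal protein gene. Psmg1, Psmg3 and Psmg4 had none within 10 kb.

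Psme1 and Psme2 encode the subunits of the interferon-induced activator of the core and lie close together on chromosome 14. A single 3KR summit at 55591461 lay within 10 kb of both, 360 bp upstream of Psme2 and 9.93 kb from Psme1. Its score of 4.05 and rank of 6486 of 6753 were the lowest of all summits near these genes. It was also 252 bp from an end of Rnf31, which encodes the catalytic subunit of the linear ubiquitin ligase. Psme3 and Psme4, the genes of nuclear activators, were 89.7 and 610 kb from a 3KR summit, and the inhibitor gene Psmf1 140 kb.

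Of the genes with no listed subunit role, Psmc3ip had nearly the same summit in both lists, at 101103235 in WT and 101103234 in 3KR on chromosome 11. It stood 7.80 kb upstream of Psmc3ip and inside Retreg3, a gene of endoplasmic reticulum turnover, with a score of 5.92 and rank 1390 of 1668 in WT and 15.8 and rank 1693 of 6753 in 3KR. Psme3ip1 had a 3KR summit at 94601872 on chromosome 8, inside the gene (score 5.69, rank 5705). It was 146 bp upstream of an annotated start and 69 bp from an end of Rspry1.

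The scores of the 3KR summits near these genes spanned most of the list. In all, 16 distinct 3KR summits lay inside or within 10 kb of the 15 genes, and 8 of them ranked above the middle of the list. Of the 16, 3 were shared with WT, where 13.05% of the whole 3KR list was. At 4 genes, Psma2, Psmb2, Psmc4 and Psmd5, the summit ranked between 117 and 543, while 3 summits had a score of 5.69, a value that 285 summits of the 3KR list carried. For 8 of the 16 the nearest end of a protein-coding gene was not that of a proteasome gene. Among the 1668 highest scored 3KR summits, as many as the WT list holds, these 4 genes were left, against 7.08% of all protein-coding genes. All 3 WT summits were shared with 3KR, where 53.1% of the whole WT list was. Of the 3 WT summits 1, that of Psma2, ranked above the middle of the WT list.

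Distances without a limit were shorter for the 51 genes than for the median gene, in both lists. The median distance to the nearest 3KR summit was 42.3 kb, against 75.4 kb over all protein-coding genes, and 282 against 529 kb for WT. A 3KR summit lay inside or within 50 kb for 28 genes, where all genes gave 42.2%, and for 13 of these it was 10 to 50 kb away. In WT 9 genes had one within 50 kb, where all genes gave 11.6%. The median length was 11.6 kb for the 51 genes and 17.2 kb for all, and the median number of other protein-coding genes within 50 kb was 3 for both. Another gene's end within 1 kb was found at 5 of the 10 genes with a 3KR summit at an end and at 16 of the other 41. Over all protein-coding genes these shares were 45.4% and 22.3%. The part of close neighbours in the counts was not tested.

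**Figure D3:**
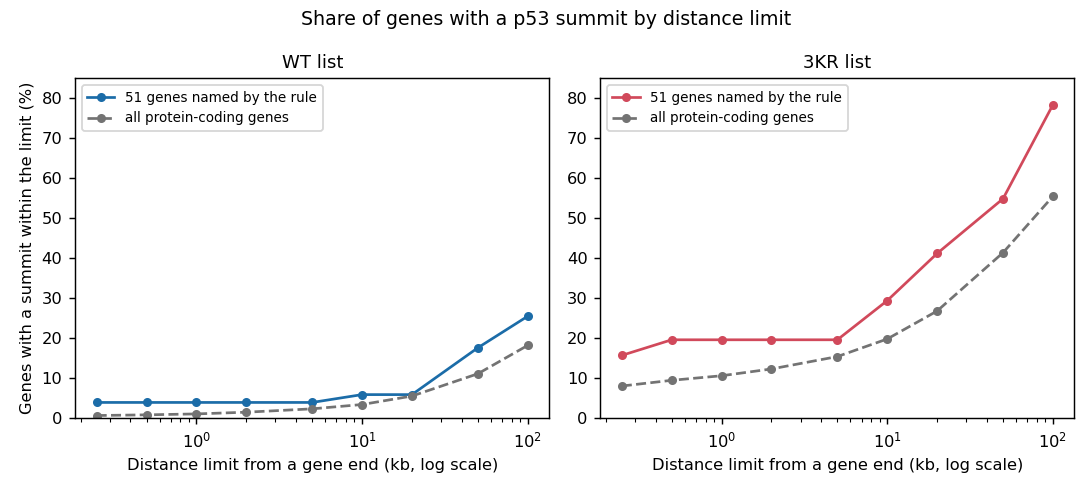
Share of genes (%) with a summit within a given distance of a gene end (kb, log scale) in the WT list (left) and the 3KR list (right), for the 51 genes (solid) and all protein-coding genes (dashed). The 3KR curve of the 51 genes is flat at 19.6% from 0.5 to 5 kb and reaches 78.4% at 100 kb, where all genes reach 55.5%.

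Other large groups of genes, also chosen by symbol, gave higher shares in 3KR, side by side. The symbol patterns admitted paralogues and, in the respiratory chain group, genes of the ATP synthase. Within 1 kb of an end, 25 of 85 cytosolic ribosomal protein genes (29.4%) and 26 of 88 nuclear respiratory chain genes (29.5%) had a 3KR summit, against the 10 of 51 here. All protein-coding genes gave 10.6%. In WT each of these groups had 1 such gene (1.18% and 1.14%), against 1.05% of all protein-coding genes. No test of these differences was made.

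Genes that work with the proteasome but carry other names were taken from a list of 30, of which 29 matched. They are ubiquitin genes, ubiquitin receptors and shuttles, unfolding factors and regulators. In 3KR 11 of 29 had a summit inside or within 10 kb, or 37.9% (22.7 to 56.0), against the background of 23.4%. Within 1 kb of an end 7 had one, or 24.1% (12.2 to 42.1), against 10.6% of all protein-coding genes. In WT 2 of 29 had a summit inside or within 10 kb, or 6.90% (1.91 to 21.96), against 5.04%. No gene of the list had a summit in both, where 3.92% of all protein-coding genes did.

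Rad23b encodes a shuttle factor that carries ubiquitinated proteins to the proteasome. It had a 3KR summit 86 bp outside the gene, with a score of 32.9 and rank 452 of 6753, and a second inside it with a score of 10.1. Ubb, a ubiquitin precursor gene, had 2 summits, 1112 bp outside the gene (score 15.9) and inside it (score 10.8). Vcp, the gene of the segregase that pulls ubiquitinated proteins apart, had one 37 bp outside (score 9.39). Ube3c, a ligase gene, had one 75 bp outside, Txnl1, a thioredoxin-like proteasome partner, one 253 bp outside, and Ipo9, an importin gene, one 50 bp outside.

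The regulators of proteasome transcription were among these genes too. Ddi2 encodes the protease that cuts NFE2L1 to its active form. It had the highest scored 3KR summit of the 29, with a score of 57.2 and rank 151 of 6753, inside the gene and 11356 bp from the nearer end. Nfe2l1 itself had 2 3KR summits, one inside the gene, 559 bp upstream of an annotated start (score 10.1, rank 3328), and one 7.42 kb outside (score 8.10). Nfe2l2, the oxidative stress factor that binds the same element, had 2 inside the gene, with scores of 8.99 and 4.58. The WT summits were inside Ngly1, the gene of the enzyme that removes sugars from NFE2L1 (score 8.10, rank 988 of 1668), and inside Nploc4, a Vcp cofactor gene (score 4.46, rank 1558).

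The promoter windows of the proteasome genes were searched for 10 motifs on both strands, in the 300 bases from 250 before to 50 after each start. There were 47 windows of the 43 genes, as some genes have several starts, and 21263 windows of all protein-coding genes. The p53 half-site, by its standard consensus, was found in 2 of 47 windows (4.26%), those of Psmb11 and Psme2b, against 7.37% of all windows. The 8 of these genes with a 3KR summit within 1 kb of an end had 10 windows, of which the 2 of Psme2 overlap by 220 bp and share their matches. The half-site was in 0 of these 10, where all genes with such a summit gave 6.88%. A full site, with half-sites at most 13 bp apart, was in 0 of 47 windows and 10 of 21263. This says only that these exact letters are not in these windows.

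The ETS core CCGGAAG was in 17 of 47 windows, or 36.2%, against 11.6% of all windows. It was found in 2 of the 10 windows of genes with a 3KR summit at an end, where all genes with one gave 18.6%. Of the other 37 windows, 15 held it. The antioxidant response element core TGANNNNGC was in 27 of 47, or 57.4%, against 41.7%, and in 7 of the 10, where all genes with a 3KR summit at an end gave 45.1%. The SP and KLF core GGGCGG was in 25 of 47, or 53.2%, against 46.2%, and in 8 of the 10, where all genes with a 3KR summit at an end gave 68.0%. On the strand of the gene alone GGGCGG was in 29.8%, against 30.8% of all windows, so its share was above the background only with both strands. The core of NRF1 was in 3 windows, those of Psma2, Psmc5 and Psmg1.

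CCAAT, the NF-Y motif, was in 34.0% of windows against 38.2% on both strands, and in 29.8% against 21.6% on the strand of the gene alone, which turns the direction. TATAAA was in 8.51% against 12.6%, and against 8.26% on the strand of the gene alone, where its share stayed 8.51%. TGANTCA, the AP-1 motif, was in 2 windows (4.26% against 6.99%), AAGATGGCG, the YY1 motif, in 2 (4.26% against 1.83%), and TGACGTCA, the CREB and ATF motif, in 0, where all windows gave 2.23%. The median GC content was 57.3% over the 47 windows and 56.3% over all. The ratio of observed to expected CpG was 0.734 against 0.567. In the 10 windows of genes with a 3KR summit at an end these medians were 60.2% and 0.686, and over all genes with one 62.0% and 0.849.

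**Figure D4:**
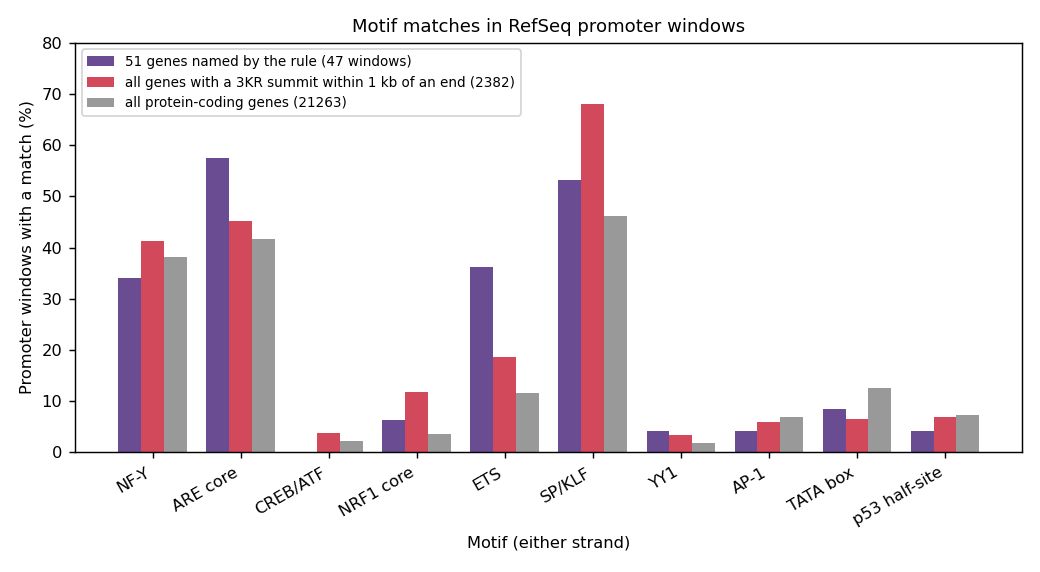
Share of promoter windows (%) with a match to each of 10 motifs on either strand, for the 47 windows of the proteasome genes, the 2382 windows of all genes with a 3KR summit within 1 kb of an end, and the 21263 windows of all protein-coding genes. The ETS bar of the proteasome genes stands at 36.2%, above 18.6% and 11.6% in the other groups. ARE is the antioxidant response element.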

How the data were processed

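ChIP-seq for p53 was done in sorted basal progenitor cells, 3 libraries per genotype. BWA, MACS2 and the mm10 build are named in the submitters' processing notes, without versions. Nothing used here states the control, thresholds, filters or way of combining libraries. The deposited lists hold 1 base per summit and a value that the authors' caller made, read here as −log10 of a p-value or q-value (which of the 2 is not given). The depth is unknown.

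Summits on assembled chromosomes (1636 WT, 6685 3KR) were set against gene positions of a RefSeq table (GRCm38.p6) with Python 3.11.15, pandas 2.3.3 and numpy 2.4.6. Start sites came from RefSeq promoter windows. Intervals are 95% Wilson intervals (scipy 1.17.1). Distances and motif matching were checked on planted positions. Genes and lists were chosen with earlier results of these data known, so counts stand beside those of all genes without a test. The text names every gene with a summit within 10 kb, the 3 closest beyond it, listed partners with a summit (some are not reported here), and neighbours whose end lies within 1 kb of a summit. A few other genes were named after their values were seen. Alternatives varied distance, score, list length, sharing, gene assignment, names and strand.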

Additional observations from a re-analysis of the deposited data

How the results depend on the processing

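Of 36 alternatives to the 5 counts of genes, 18 stayed within 1.5 times the reported count and 18 moved further. In brackets are the share of the set and that of all genes. Within 50 kb the 51 genes gave 9 for WT (17.6%, all genes 11.6%) and 28 for 3KR (54.9%, 42.2%), and 17 of 29 partner genes had a 3KR summit (58.6%). In the upper 50% of each list by score there were 1 for WT (1.96%, 2.56%), 7 for 3KR (13.7%, 13.4%) and 5 for 3KR within 1 kb of an end (9.80%, 5.49%), with 4 (3KR) and 0 (WT) partners. Among the 1668 highest scored 3KR summits there were 4 (7.84%, 7.08%), 4 within 1 kb of an end (7.84%, 2.82%) and 3 partners. Only shared summits left 3 for 3KR (5.88%, 3.11%), 2 within 1 kb of an end (3.92%, 0.790%), and 0 partners in either list. Giving each summit to its nearest gene left 1 for WT (1.96%, 4.03%) and 7 for 3KR (13.7%, 17.3%), both below all genes. Within 1 kb of an end it left 7 for 3KR (13.7%, 8.81%), above all genes. Without gene bodies 1 partner remained in WT. Using annotated starts, chosen after seeing the data, gave 8 of 43. On the gene strand alone, 2 of 10 motif counts moved by more than 1.5 times, ETS from 17 to 11 windows (23.4%, all windows 6.30%) and SP/KLF from 25 to 14 (29.8%, 30.8%). NF-Y went from 16 to 14 windows while its share turned from below to above all windows. No paired analysis was possible because there is 1 list per genotype with no values of single libraries, and leaving out a replicate was not run for the same reason. Unknown depth limits any reading of the difference between the lists.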
